A study of Mus musculus with 24 samples.

Results

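The genes described here encode CD1d, its close paralog, the heavy chains of classical and nonclassical MHC class I, their shared light chain and parts of the machinery that loads them. They were taken by symbol as the 8 rows Cd1d1, Cd1d2, B2m, H2-K1, H2-D1, H2-T23, Tap2 and Tapbp of the 24447 genes in the count matrix, and read in all 1735 cells. These were NK1.1+CD3e+ cells sorted from perfused livers of mice of 8 to 10 weeks, picked by hand and sequenced singly with unique molecular identifiers (UMIs). The genotypes were wild type (WT, 623 cells), Jα18-/- (Jα18-deficient, 725 cells) and CD1d-/- (CD1d-deficient, 387 cells). WT mice were bought and the deficient lines came from another colony. Per the study's text, the original Jα18-deficient line has further Jα elements deleted, and the CD1d-deficient line keeps CD1d2. The labels list 8 libraries per genotype, but cell names carry the genotype and a number, so each genotype formed 1 pool with no replicates and no test was made between genotypes.

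MHC class I molecules pair a polymorphic heavy chain with β2-microglobulin and show peptides from the cytosol to CD8+ T cells and to NK cell receptors. The TAP transporter carries the peptides into the endoplasmic reticulum, where tapasin bridges it to empty class I molecules. CD1d also pairs with β2-microglobulin but holds lipids, and NKT cells are selected on CD1d borne by other thymocytes. Qa-1, a nonclassical class I molecule, shows leader peptides of other class I chains to CD94/NKG2 receptors, and the Ly49 receptors (Klra genes) read classical class I molecules directly.

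Both CD1d genes lie side by side on mouse chromosome 3 in the mm9 build, Cd1d1 at chr3:86799756-86803363 on the minus strand and Cd1d2 at chr3:86790508-86793455 on the plus strand. B2m, the light chain, lies outside the MHC at chr2:121973422-121978819 (plus strand). The 5 other genes lie in the MHC region of chromosome 17, which are Tapbp (tapasin) at chr17:34052844-34066235, H2-K1 at chr17:34132962-34137278, Tap2 (a TAP subunit) at chr17:34340472-34353266, H2-D1 at chr17:35399675-35404444 and H2-T23 (the Qa-1 heavy chain) at chr17:36166718-36169800. Of the 2 CD1d transcripts, 269 of the 1847 windows of 100 bases in Cd1d1 occur letter for letter in Cd1d2. None of those in the last 500 bases of Cd1d1 does, against 51.9% of those in the last 500 bases of Cd1d2. H2-K1, B2m, Tap2 and Tapbp shared no such window with another protein-coding gene, while H2-D1 shared 4.64% and H2-T23 4.44%, none of them in the last 500 bases.

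The promoters of the 4 genes whose proteins make up the classical and Qa-1 molecules are shown because their products join into the molecules that the comparisons below follow. They are the RefSeq sequences of GRCm38.p6, from 250 bases before to 50 after the annotated start, with capitals for 4 motifs read on both strands. The motifs are the κB core of enhancer A (GGGATTCCC), the core of the interferon-stimulated response element (TTTCNNTT), the core of the cAMP response element (TGACG) and the CCAAT box.
H2-K1 (chr17:34000298-34000597, minus strand): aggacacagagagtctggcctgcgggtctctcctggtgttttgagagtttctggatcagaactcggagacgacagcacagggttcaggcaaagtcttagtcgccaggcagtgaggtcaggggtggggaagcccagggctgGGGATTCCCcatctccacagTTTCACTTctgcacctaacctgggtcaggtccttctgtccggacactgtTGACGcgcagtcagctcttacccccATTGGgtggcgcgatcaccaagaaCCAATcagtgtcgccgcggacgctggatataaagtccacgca
H2-D1 (chr17:35262844-35263143, plus strand): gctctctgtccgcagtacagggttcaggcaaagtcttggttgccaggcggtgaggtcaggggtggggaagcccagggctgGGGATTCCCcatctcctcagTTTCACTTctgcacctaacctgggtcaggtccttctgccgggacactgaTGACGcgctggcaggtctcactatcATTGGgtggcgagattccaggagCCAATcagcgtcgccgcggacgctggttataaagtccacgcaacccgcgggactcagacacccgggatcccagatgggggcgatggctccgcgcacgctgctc
B2m (chr2:122147437-122147736, plus strand): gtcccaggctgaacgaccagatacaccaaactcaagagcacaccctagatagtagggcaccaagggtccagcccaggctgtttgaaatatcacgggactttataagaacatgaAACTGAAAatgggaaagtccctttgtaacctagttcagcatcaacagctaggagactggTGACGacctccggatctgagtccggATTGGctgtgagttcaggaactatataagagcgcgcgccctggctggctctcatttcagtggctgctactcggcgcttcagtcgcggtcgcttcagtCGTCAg
H2-T23 (chr17:36032652-36032951, minus strand): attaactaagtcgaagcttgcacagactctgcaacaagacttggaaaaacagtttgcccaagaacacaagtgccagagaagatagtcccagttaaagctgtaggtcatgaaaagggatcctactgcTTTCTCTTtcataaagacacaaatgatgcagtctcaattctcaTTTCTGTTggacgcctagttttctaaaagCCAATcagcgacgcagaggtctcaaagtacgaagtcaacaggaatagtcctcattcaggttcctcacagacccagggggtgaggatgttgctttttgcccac

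In H2-K1 and H2-D1 the 4 motifs came in the same order, and from the κB core to the first CCAAT box (read as ATTGG on the strand shown) 88 of 99 bases were identical. The B2m window held all but the κB core, the cAMP core at 2 places, and the H2-T23 window held 2 matches to the interferon core and 1 CCAAT box. Of 32851 promoters of this length, 0.353% held the κB core, 23.9% the interferon core, 20.8% the cAMP core, 37.4% a CCAAT box and 0.0152% all of them. No motif overlapped another in these windows. The motifs were chosen after the sequences had been seen, and a match is a description of letters. Tapbp also has an entry, with 2 CCAAT boxes and none of the other motifs, and H2-K1 has a second, overlapping entry with the same motifs. Cd1d1, Cd1d2 and Tap2 are named without a promoter sequence.

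Levels are given as counts per 1000000 UMIs of the pool (CPM). Their exact 95% Poisson intervals take in the error of counting but no difference from mouse to mouse or from cell to cell. Depth was uneven, the median cell holding 40467 UMIs in WT, 46670 in Jα18-deficient and 13508 in CD1d-deficient mice. The sort label held in the counts, since Cd3d, a chain of the CD3 complex, was at 1492 to 1625 CPM and Klrb1c, which encodes NK1.1, at 723 to 956 CPM over the pools. Genes of other cell types were not evenly spread. The 4 class II genes summed to 241 CPM in the CD1d-deficient pool, 55.4 in the Jα18-deficient and 28.2 in the WT pool, and the 10 myeloid genes to 3405, 1397 and 569 CPM, of which Fcer1g gave 2790, 1371 and 481 CPM and Lyz2 588, 14.7 and 77.3 CPM. The order of Jα18-deficient over WT in that sum came from Fcer1g, and the rest of the list did not go 1 way. Lyz2, Csf1r and Cd68 were lower in the Jα18-deficient pool. C1qb (2.02 against 0.117 CPM) and C1qc (1.06 against 0.381 CPM) were higher there, C1qb in 8.0% of cells against 0.642% in WT. The median log2 ratio of the 5 measured list genes was -0.36. Cd14 had no UMI in the Jα18-deficient pool. The 7 B cell genes summed to at most 14.4 CPM (Ms4a1 and Pax5 each at 3 UMIs or fewer per pool) and the 9 hepatocyte genes to at most 34.5 CPM. The part of these cells or of their RNA in the values between pools was not tested.

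Cd1d1, the gene removed in the CD1d-deficient line, was counted 854 times in WT cells, 934 times in Jα18-deficient cells and never in CD1d-deficient cells. The levels were 25.04 CPM (23.4 to 26.8) in WT, 15.4 CPM (14.5 to 16.5) in Jα18-deficient and 0 CPM in CD1d-deficient cells, where a count of 0 allows up to 0.206 CPM. Against the limit of 3 UMIs over the pool, the level in the CD1d-deficient pool was at least 121-fold lower than in WT and at least 74.8-fold lower than in Jα18-deficient cells. The matrix was thus free of Cd1d1 where the allele is deleted. In the Jα18-deficient pool the level was 1.62-fold lower than in WT (log2 ratio -0.70, interval -0.83 to -0.56). It was lower in 3 of the 4 classes of cells described below and higher in 1, with log2 ratios from -2.43 to 0.58, and ran from -0.96 to -0.22 under the 6 alternatives.

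The Cd1d1 UMIs came from few cells, most of which held few of them. A UMI was seen in 72 of 623 cells from WT livers (11.6%, 9.15 to 14.3% by Clopper-Pearson), in 102 of 725 Jα18-deficient cells (14.1%, 11.6 to 16.8%) and in 0 of 387 CD1d-deficient cells, which allows a share of up to 0.775%. With every cell thinned to 10000 UMIs, which left 523 WT, 632 Jα18-deficient and 227 CD1d-deficient cells, the shares were 8.80% (6.51 to 11.6%) in WT, 7.44% (5.52 to 9.77%) in Jα18-deficient and 0 of 227 in CD1d-deficient cells, which allows up to 1.32%. The WT and Jα18-deficient shares overlapped in their intervals. The 27 WT cells with 10 or more Cd1d1 UMIs held 82.3% of the WT pool's Cd1d1 UMIs, and 22 such Jα18-deficient cells held 81.3%. The 10 richest cells alone held 53.0% and 59.4%, so the Poisson intervals of the summed level, which take each UMI as independent, are too narrow for Cd1d1. They are too narrow for the other members as well. In thinned cells the variance was 15.1 to 20.3 times the mean for B2m, 9.30 to 12.1 for H2-K1 and 7.08 to 9.70 for H2-D1. It was 3.08 to 9.85 times the mean for H2-T23, Tap2 and Tapbp, where a Poisson variance equals the mean.

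**Figure D1:**
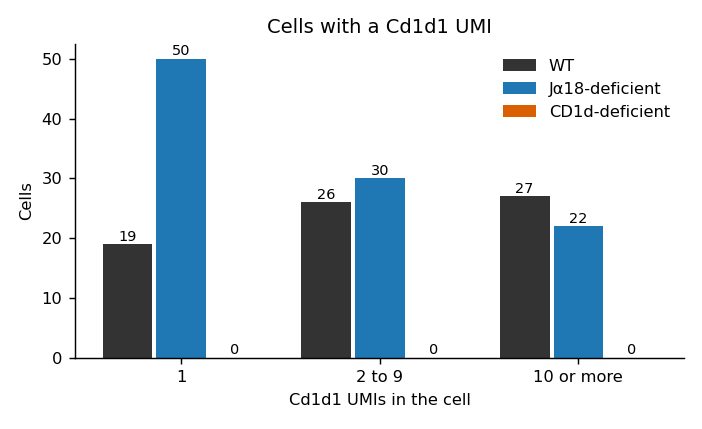
Number of cells (vertical axis) with 1, 2 to 9, or 10 or more Cd1d1 UMIs (horizontal axis) in each pool, with the count above each bar. The Jα18-deficient pool has 50 cells at 1 UMI against 19 in WT, the numbers at 10 or more are 22 and 27, and the CD1d-deficient pool has none.

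The cells with a Cd1d1 UMI carried the T cell genes of the sort, and in the Jα18-deficient pool a larger share of them had a class II UMI. All 72 WT cells with Cd1d1 had a UMI of the T and NKT list, and so had all 551 without. In the Jα18-deficient pool all 102 cells with Cd1d1 and all 623 without had one, so this list did not tell the groups apart. Among WT cells, 27.8% (17.9 to 39.6%) of those with Cd1d1 and 27.4% (23.7 to 31.3%) of those without had a class II UMI, at median depths of 37829 and 40467 UMIs, and the shares with a B cell UMI were 8.33% and 8.17%. Among Jα18-deficient cells the class II shares were 56.9% (46.7 to 66.6%) with Cd1d1 and 34.2% (30.5 to 38.1%) without, at median depths of 70490 and 43856 UMIs. The difference in the Jα18-deficient pool remained after thinning to 10000 UMIs, at 36.7% (27.2 to 47.1%) of 98 cells and 17.2% (14.1 to 20.7%) of 534 cells, and in the WT pool the thinned shares were 16.1% and 16.7%. Cells were grouped by Cd1d1 before thinning, so the grouping itself still went with depth. In the Jα18-deficient pool the medians before thinning were 86825.5 and 56788.5 UMIs, and 47 of the 98 cells kept a Cd1d1 UMI. The summed class II level did not keep 1 order there, at 51.3 CPM with Cd1d1 and 56.4 CPM without over all UMIs, and 105 and 38.6 CPM in thinned cells. A UMI of the myeloid list, which in this pool was mostly Fcer1g, an adaptor that NK cells also use, was in 91.8% and 79.2% of the thinned Jα18-deficient cells and in 53.2% and 57.0% of the thinned WT cells. The 6 NK receptor genes gave 82.7% and 67.0% in the Jα18-deficient pool and 17.7% and 26.7% in WT. The part of other cells' RNA in this difference was not tested. B2m stood at 17256 CPM in WT cells with Cd1d1 and 17978 CPM in those without, and at 11590 and 10952 CPM in the Jα18-deficient pool, so the sign of that difference was not the same in both pools.

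Cd1d2, whose product differs from CD1d in its lipid groove, was all but absent. WT cells had 0 UMIs of it (up to 0.0880 CPM), Jα18-deficient cells 25 and CD1d-deficient cells 1, although the CD1d-deficient line keeps this gene. The 25 UMIs were all in 1 Jα18-deficient cell of 102293 UMIs with Ly49 detected, and the other UMI was in 1 CD1d-deficient cell of 159552 UMIs. Neither cell had a Cd1d1 UMI. The gene did not pass the filter on low counts and entered no test.

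B2m, the light chain of all these molecules, was seen in every one of the 1735 cells and, among the members with at least 100 UMIs in each pair of pools, had after Cd1d1 the widest fold between its highest and lowest pool. Its level was 17901 CPM (17857 to 17946) in WT, 13422 CPM (13362 to 13481) in CD1d-deficient and 11081 CPM (11055 to 11108) in Jα18-deficient cells. The Jα18-deficient pool was 1.62-fold below WT (log2 ratio -0.69), the CD1d-deficient pool 1.33-fold below WT (-0.42), and the CD1d-deficient pool 1.21-fold above the Jα18-deficient pool (0.28). In single cells the median level was 15932 CPM in WT, with quartiles of 12658 and 19748, against 10293 CPM in Jα18-deficient and 12975 CPM in CD1d-deficient cells. The order of the 3 pools held in each of the 4 classes of cells described below, where the sums ran from 17263 to 19989 CPM in WT, from 11908 to 14038 in CD1d-deficient and from 10700 to 11381 in Jα18-deficient cells and did not overlap. It also held under the 6 other ways of scaling or choosing cells, with log2 ratios of Jα18-deficient over WT from -0.81 to -0.65.

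H2-K1 and H2-D1, the classical heavy chains of C57BL/6 mice, were in all cells but 1 WT cell that had no H2-K1 UMI. H2-K1 stood at 5967 CPM (5941 to 5993) in WT, 5942 CPM (5902 to 5982) in CD1d-deficient and 4644 CPM (4627 to 4661) in Jα18-deficient cells. H2-D1 stood at 5039 CPM (5015 to 5063) in WT, 5876 CPM (5836 to 5915) in CD1d-deficient and 4631 CPM (4614 to 4648) in Jα18-deficient cells. Both were lowest in the Jα18-deficient pool, with log2 ratios to WT of -0.36 for H2-K1 and -0.12 for H2-D1, in each of the 4 classes as well. In the CD1d-deficient pool H2-K1 had a log2 ratio to WT of -0.01 over all cells (interval -0.02 to 0.01) and H2-D1 was above it (0.22, interval 0.21 to 0.23), with the sign of the H2-K1 ratio turning under 2 of 6 alternatives. H2-K1 was lower than WT in 3 of 4 classes there (-0.20 to -0.12) and higher in the Ly49-only class (0.02). H2-D1 was higher than WT in 3 of 4 classes and lower in the Cd8a-only class (-0.19). The highest H2-K1 values per cell were in shallow cells, at 112156 CPM in 1 CD1d-deficient cell of 1382 UMIs and 57627 CPM in 1 WT cell of 1180 UMIs.

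The 2 heavy chains did not keep the same proportion in every pool. There were 1.184 H2-K1 UMIs per H2-D1 UMI in WT (1.177 to 1.192), 1.003 in Jα18-deficient (0.998 to 1.008) and 1.011 in CD1d-deficient cells (1.002 to 1.021). The share of cells with more H2-K1 than H2-D1 UMIs was 62.4% in WT, 50.9% in Jα18-deficient and 51.7% in CD1d-deficient mice. Over the 4 classes the ratio ran from 1.09 to 1.22 in WT, from 0.965 to 1.08 in Jα18-deficient and from 0.906 to 1.10 in CD1d-deficient cells, so that WT lay above Jα18-deficient in all of them and overlapped with the CD1d-deficient range. Leaving out the 3 cells of highest H2-K1 CPM gave 1.184, 1.002 and 1.010, and thinned cells gave 1.196, 1.005 and 1.029, both chosen after seeing the data. The ratio compares pools and is no measure of the relative amounts of the 2 mRNAs.

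**Figure D2:**
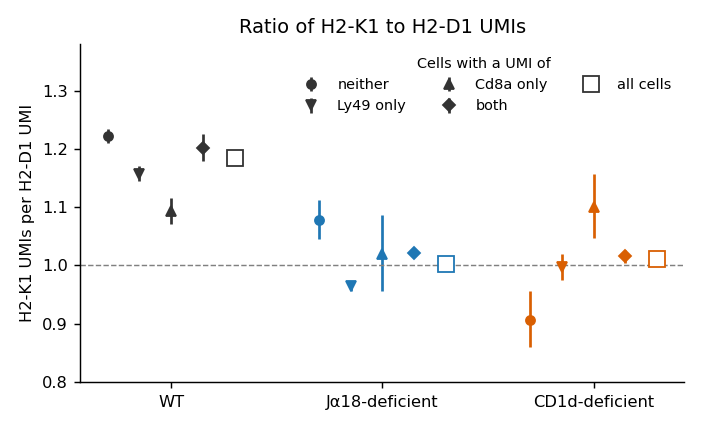
H2-K1 UMIs per H2-D1 UMI (vertical axis) in each pool for all cells (open squares) and for cells with a UMI of neither, Ly49, Cd8a or both (filled symbols), with exact 95% counting intervals. The WT values lie between 1.09 and 1.22, above the 4 Jα18-deficient classes (0.965 to 1.08).

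H2-T23, the Qa-1 heavy chain, differed little between pools in the sums over all cells. Its level was 289 CPM (283 to 294) in WT, 294 CPM (285 to 303) in CD1d-deficient and 268 CPM (264 to 272) in Jα18-deficient cells, and the WT and CD1d-deficient intervals overlapped. The sign of that last difference turned under 3 of 6 alternatives. In cells thinned to 10000 UMIs it was detected in 73.2% (69.2 to 76.98%) of cells in WT, 70.9% (64.6 to 76.7%) in CD1d-deficient and 59.5% (55.6 to 63.3%) in Jα18-deficient mice. The lower share in the Jα18-deficient pool went with the lower CPM there. Its log2 ratio of Jα18-deficient over WT was -0.11 over all cells and -0.30 in thinned cells. H2-T23 was lower in that pool in 4 of 4 classes, from -0.16 to -1.58, the last in the Cd8a-only class of 18 cells.

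Tap2 and Tapbp, which serve peptide transport and loading, did not move as 1 unit. Tap2 was higher in both deficient pools over all cells, at 174 CPM (171 to 178) in Jα18-deficient and 141 CPM (135 to 147) in CD1d-deficient cells against 110 CPM (107 to 114) in WT. The Jα18-deficient over WT ratio of Tap2 (log2 0.66) turned to -0.32 in cells with neither Cd8a nor Ly49 detected, and was from 0.53 to 1.09 in the other 3 classes. Tapbp was at 412 CPM (405 to 419) in WT, 381 CPM (371 to 391) in CD1d-deficient and 366 CPM (361 to 371) in Jα18-deficient cells. Its log2 ratios to WT were -0.11 for the CD1d-deficient pool, although it was higher than WT in 3 of 4 classes (0.05 to 0.21) and lower in the cells with both (-0.25), and -0.17 for the Jα18-deficient pool, which was lower in 4 of 4.

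**Figure D3:**
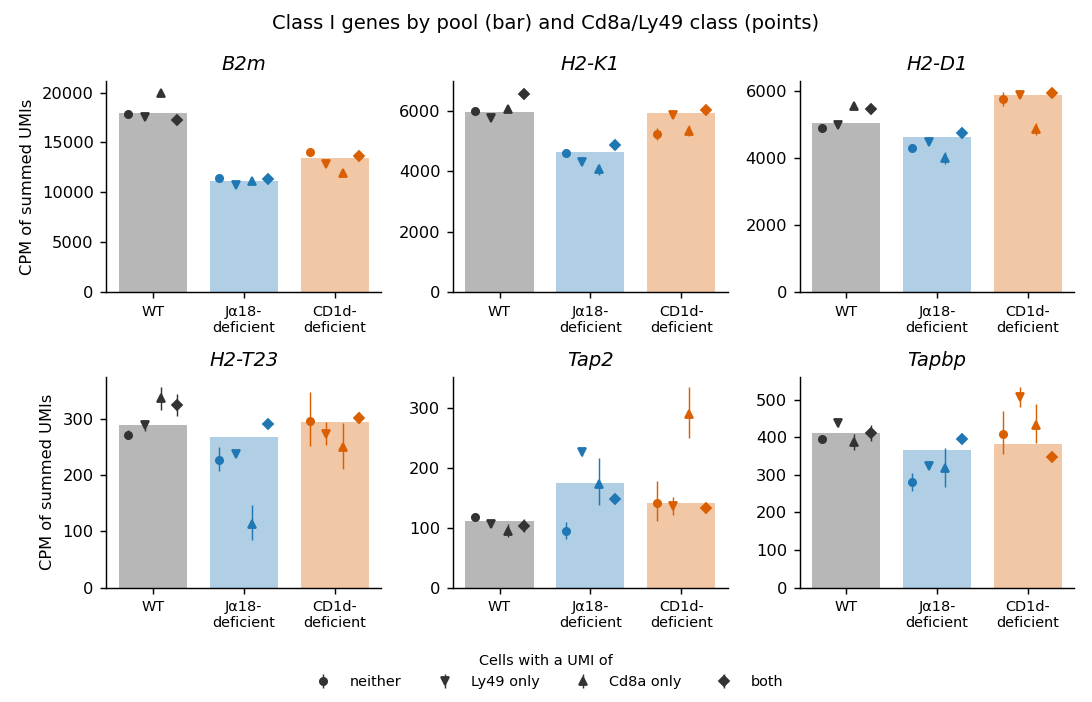
Level of 6 members in CPM of summed UMIs (vertical axes) by pool, as bars for all cells and as points for the classes of cells with a UMI of neither, Ly49, Cd8a or both, with exact 95% Poisson intervals. B2m in WT lies between 17263 and 19989 CPM, above the 4 classes of both other pools, while Tap2 and H2-T23 vary most in the small Cd8a-only classes.

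Read against all genes, these differences over all cells stayed under a log2 ratio of 1 apart from Cd1d1 in the CD1d-deficient pool. A log2 ratio of 1 or more in either direction was met by 1 of the 7 members with at least 100 UMIs for CD1d-deficient over WT (24.5% of 9447 genes, 12.2% higher and 12.3% lower), by 0 of 7 for Jα18-deficient over WT (21.2% of 10267 genes, 14.0% higher and 7.14% lower) and by 1 of 7 for CD1d-deficient over Jα18-deficient (27.3% of 10042 genes, 9.58% higher and 17.8% lower). The member past it was Cd1d1 in both cases. By rank not all the others were small. For Jα18-deficient over WT, 33.1% of genes had a larger absolute ratio than Cd1d1, 33.4% than B2m and 35.2% than Tap2. The shares were 57.0% for H2-K1, 78.5% for Tapbp, 84.3% for H2-D1 and 86.4% for H2-T23. The median log2 ratio of all genes was 0.01, 0.14 and -0.13 in these 3 comparisons, so relative to the median gene the Jα18-deficient pool's B2m, H2-K1 and H2-D1 stood lower still and its Tap2 less high. The pools also differed in the makeup of their cells, and lower levels per cell and other mixtures of cells cannot be told apart by these sums.

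Over single cells the abundant members varied less than the loading genes. In cells thinned to 10000 UMIs, the coefficient of variation of B2m was 0.313 in WT, 0.430 in Jα18-deficient and 0.340 in CD1d-deficient cells, that of H2-K1 was 0.397, 0.461 and 0.462, and that of H2-D1 was 0.379, 0.439 and 0.419. Those of H2-T23, Tap2 and Tapbp, which had means of 1.13 to 4.34 UMIs per thinned cell, were from 1.17 to 1.82. Counting noise is larger at such low means. The variance of H2-T23, Tap2 and Tapbp was 3.08 to 9.85 times the mean, where counting noise alone gives a variance equal to the mean. The share of counting noise in each coefficient of variation was not separated. Across the cells of a pool, B2m and H2-K1 had a Pearson's r of 0.365 in WT, 0.376 in Jα18-deficient and 0.569 in CD1d-deficient cells, on log2 of thinned counts plus 1. H2-K1 and H2-D1 had an r of 0.299, 0.309 and 0.528, and B2m and H2-D1 of 0.224, 0.175 and 0.561. These values describe 523, 632 and 227 cells that share libraries and a fixed depth. All other pairs had an r of at most 0.255, and those with Cd1d1 were from -0.0762 to 0.101.

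**Figure D4:**
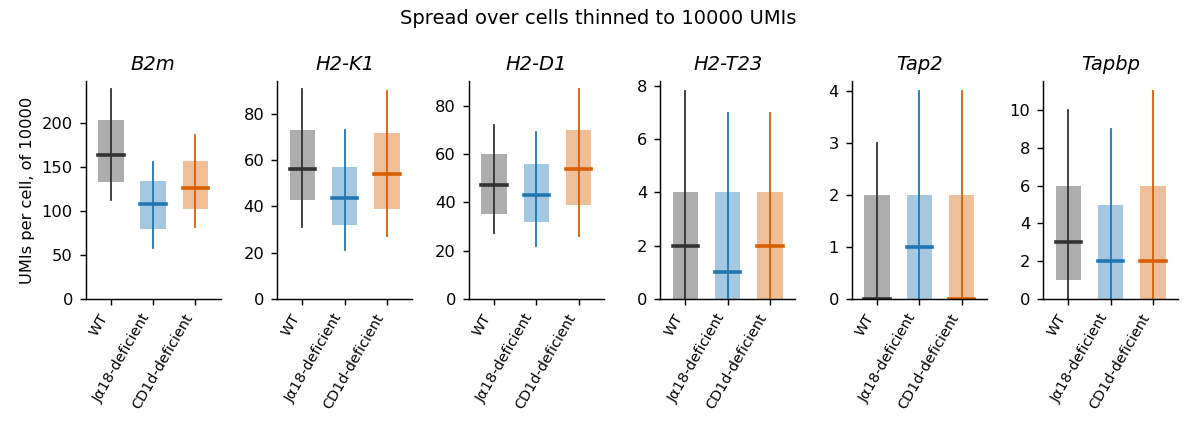
UMIs of 6 members per cell (vertical axes) in cells thinned to 10000 UMIs, as median (thick line), quartiles (box) and 10th to 90th percentile (thin line) in each pool. The B2m median is 164 in WT, 108 in Jα18-deficient and 126 in CD1d-deficient cells, and the Tap2 median is 0, 1 and 0.

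To see whether class I expression differed with the receptors that read it, cells were split by a UMI of Cd8a, the CD8 chain of T cells that bind class I, and by a UMI of any of the Ly49 genes Klra1, Klra5, Klra7 and Klra9. Neither was detected in 339 WT, 66 Jα18-deficient and 37 CD1d-deficient cells, Ly49 alone in 187, 335 and 116, Cd8a alone in 43, 18 and 24, and both in 54, 306 and 210. Detection rested on a single UMI in 62.9% of the Cd8a-detected WT cells and 40.7% of the Ly49-detected WT cells, and cells with both were deeper than cells with neither in each pool (medians of 54437 against 31455 UMIs in WT, 79634 against 19279 in Jα18-deficient and 24311 against 5896 in CD1d-deficient cells). UMIs were summed over the cells of each pool and class, and the 12 sums were tested with edgeR's quasi-likelihood test with terms for class and pool. The 3 pools, which are different genotypes, served as replicates.

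No member passed the test by Ly49 detection, and the intervals of the 3 abundant members were narrow. Of 9447 genes 28 were called at a Benjamini-Hochberg adjusted p under 0.05 (0.296%), 4 of them the Ly49 genes that made the split, and 0 of the 7 members tested were, with 1 at an unadjusted p under 0.05 and none by DESeq2. That one was B2m, at -0.14 on the log2 scale with Ly49 detected (SE 0.06, interval -0.28 to -0.01, unadjusted p = 0.0327 and adjusted p = 0.515, edgeR). H2-K1 differed by -0.01 (SE 0.08, interval -0.17 to 0.15) and H2-D1 by 0.00 (SE 0.08, interval -0.17 to 0.17), so a change of either past 0.17 lay outside these intervals. H2-T23 (0.14, interval -0.31 to 0.59), Tap2 (-0.15, -0.73 to 0.43) and Tapbp (0.03, -0.33 to 0.40) had wider intervals. The estimate for Cd1d1 was 0.57 (interval -1.27 to 2.41) and rested on the WT and Jα18-deficient pools, since the CD1d-deficient sums were all 0. It was 2.18 when detection needed 2 UMIs, 1.88 when it needed 3 and 0.09 with DESeq2.

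The B2m sums behind this value were close within each pool. In WT they were 17864 CPM with neither detected, 17582 with Ly49, 19989 with Cd8a and 17263 with both. In the Jα18-deficient pool they were 11381, 10700, 11173 and 11292 CPM in the same order, and in the CD1d-deficient pool 14038, 12868, 11908 and 13612 CPM. With Cd8a undetected, the sum with Ly49 was the lower one in 3 of 3 pools, and with Cd8a detected it was the lower one in 1 of 3.

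No member passed the test by Cd8a detection either. The 1 gene called of 9447 (0.0106%) was Cd8a itself, and 0 of 7 members were called, with none at an unadjusted p under 0.05 and none by DESeq2. The member estimates were 0.05 for B2m (interval -0.09 to 0.18), 0.08 for H2-K1 (-0.08 to 0.24), 0.05 for H2-D1 (-0.12 to 0.22), 0.01 for H2-T23 (-0.44 to 0.46), 0.18 for Tap2 (-0.40 to 0.76), 0.02 for Tapbp (-0.35 to 0.39) and -0.94 for Cd1d1 (-2.93 to 1.05), with adjusted p from 0.970 to 0.999 (edgeR). In thinned cells the Cd1d1 estimate was -0.0555, and without the Jα18-deficient pool it was 0.14. The Cd1d1 sums were uneven. They were 31.8 CPM with neither, 14.7 with Ly49, 11.4 with Cd8a and 44.6 with both in WT, and 27.2, 21.9, 2.11 and 11.2 CPM in the Jα18-deficient pool, where the third rests on 1 UMI.

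The interaction of both splits called 0 of 9447 genes (0.0%), with 462 at an unadjusted p under 0.05 and 7 called by DESeq2, none of them members. The largest member values were 2.45 for Cd1d1 (interval -1.25 to 6.15) and -0.90 for Tap2 (-2.06 to 0.26). Both detected against neither called 23 genes (0.243%), 5 of them genes that made the split, and 0 of 7 members, with none at an unadjusted p under 0.05 and none by DESeq2. There the estimates ran from -0.10 for B2m to 0.15 for H2-T23, and that for Cd1d1 was -0.38 (-3.00 to 2.25).

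**Figure D5:**
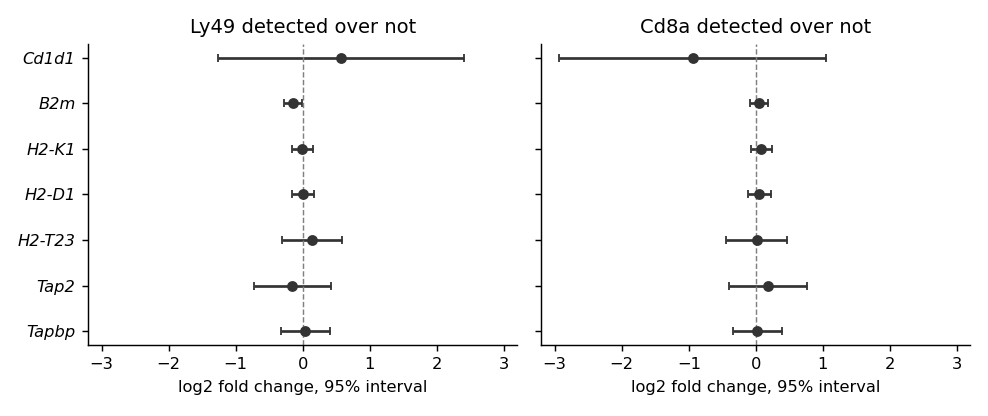
Log2 fold change (horizontal axes, with 95% intervals) of the 7 tested members between cells with and without a Ly49 UMI (left) and with and without a Cd8a UMI (right), from edgeR on 12 sums. The intervals of H2-K1 and H2-D1 stay within -0.17 and 0.24, and that of Cd1d1 spans more than 3 log2 units in both panels.

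No gene in the rest of the class I pathway was called either, while some in a list of receptor genes were. Of the class I and class Ib heavy chains 10 of 26 could be tested, of the peptide loading genes 10 of 10, of the peptide supply genes (immunoproteasome and peptidases) 11 of 11, of the regulators of class I genes 14 of 14 and of the CD1d lipid loading and trafficking genes 15 of 16. The heavy chain list includes H2-K1, H2-D1, H2-T23 and both CD1d genes, and the loading list B2m, Tap2 and Tapbp. In none of these lists was a gene called, in either direction, by Ly49 detection, by Cd8a detection, by their interaction or in both against neither. Of all 9447 genes 0.296%, 0.0106%, 0.0% and 0.243% were called in these contrasts, shares at which lists of this length would seldom hold a call. The lack of calls thus does not set these lists apart from other genes. Their medians by Ly49 detection were 0.15, -0.00066, -0.06, -0.08 and 0.08 in this order, where the median of all genes was 0.13. The receptor list was drawn up for reading class I or Qa-1, and whether each of its genes does so was not examined. Its 9 tested genes were Klrd1, Klrc1, Klrc2, Klrk1, Cd8b1, Cd160, Klre1, Klri1 and Klri2, of which 2 rose with Ly49. These were Klre1, a partner of inhibitory and activating NK receptor heterodimers (1.40, SE 0.22, adjusted p = 0.00287, edgeR), and Klrd1, the CD94 chain that pairs with NKG2 to bind Qa-1 (0.98, SE 0.17, adjusted p = 0.00680, edgeR). With both detected these 2 and Cd160, a receptor for class I and other ligands (1.13, SE 0.22, adjusted p = 0.0233, edgeR), rose of 9, and the medians of the list were 0.97 and 1.57. These lists were chosen with earlier results of these data known.

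Between pools, the same contrast was seen without a test. Of the 9 receptors, 9 were past a log2 ratio of 1 for CD1d-deficient over WT, 5 for Jα18-deficient over WT and 3 for CD1d-deficient over Jα18-deficient, all higher in the first pool, where 12.2%, 14.0% and 9.58% of all genes were past it in that direction. Klri2, a partner of Klre1, was at 3.93 CPM in WT, 23.8 in Jα18-deficient and 54.5 in CD1d-deficient cells. Klrd1 was at 689 CPM in WT, 1036 in Jα18-deficient and 1601 in CD1d-deficient cells. Klrc1, which encodes the NKG2A partner of CD94, was at 442, 910 and 1334 CPM. H2-T23, which encodes the ligand of this pair, was at 289, 268 and 294 CPM over all cells of the same pools. It was lower in the Jα18-deficient pool than in WT in each class, as given above. Klrc1, and Tap1, Psmb8 and Nlrc5 below, were named for their roles after their values were seen.

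The loading and supply lists stayed close to the median gene. For CD1d-deficient over WT, 1 of 10 loading genes was past the ratio, Erap1, the peptidase that trims peptides in the endoplasmic reticulum, at 17.1 CPM against 36.2 CPM, and none of the 11 supply genes was. Tap1, the partner of Tap2, was at 127 CPM in WT, 113 in Jα18-deficient and 170 in CD1d-deficient cells, so it was not highest in the pool where Tap2 was. Psmb8, an immunoproteasome subunit, was at 1339, 1405 and 1447 CPM. Among the regulators, Nlrc5, the class I transactivator, was at 48.7 CPM in WT, 80.1 in Jα18-deficient and 56.8 in CD1d-deficient cells. Rfx5, Rfxap and Rfxank, subunits of the RFX factor that binds class I promoters, were each past the ratio in the Jα18-deficient pool over WT, Rfx5 at 12.2 against 3.23 CPM, Rfxap at 11.2 against 4.31 and Rfxank at 35.9 against 14.7. Among CD1d lipid genes, Gla, a lysosomal galactosidase, was at 5.63 CPM in WT, 12.5 in Jα18-deficient and 0.688 in CD1d-deficient cells, the last from 10 UMIs.

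Other class I heavy chains were at low levels. H2-M3, which presents formylated peptides, was at 111 CPM in WT, 73.5 in Jα18-deficient and 142 in CD1d-deficient cells. Fcgrt, the neonatal Fc receptor chain, was at 0.498, 4.48 and 3.37 CPM, and H2-T22 at 2.23, 0.612 and 2.13 CPM. Of the 26 heavy chain genes listed, 9 had no UMI in any cell, which were H2-Q6, H2-Q7, H2-Q8, H2-Q9, H2-T3, H2-T9, H2-M5, H2-Bl and Procr. The share of 100-base windows found in another protein-coding gene was 98.3% for H2-T9, 12.6% for H2-Q7, 10.4% for H2-Q6 and 0 for H2-T3, and its part in these zeros was not tested.

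By likeness over the 12 sums, among 1891 other genes with at least 20 UMIs in each, the profile nearest to B2m was that of Eef1a1 (Pearson's r = 0.925), then Dad1 (0.909) and Gm4956 (0.901). For H2-K1 these were Dad1 (0.914), Lcp1 (0.904) and Sla (0.890), and for H2-D1 Vmp1 (0.877), Psmc2 (0.869) and Acaa2 (0.864). With the mean of each pool taken out, r was 0.095, 0.397 and 0.587 for the 3 genes beside B2m, 0.355, 0.577 and 0.755 for those beside H2-K1, and 0.676, 0.805 and 0.693 for those beside H2-D1, in the order given. H2-T23 was nearest to AI467606 (0.922), M6pr (0.904) and Cox7c (0.903), Tap2 to Nudcd3 (0.908), Brcc3 (0.879) and Fxyd5 (0.852), and Tapbp to Cdk4 (0.970), Mrps23 (0.852) and Suclg1 (0.850). Within pools r was 0.925 for H2-T23 and AI467606, 0.891 for Tap2 and Nudcd3 and 0.942 for Tapbp and Cdk4. The sums share cells' depth and library within a pool, and no member was among the nearest 3 of another.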

How the data were processed

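The authors sequenced hand-picked, sorted liver cells and, per their methods and the labels, used Cutadapt 1.15 for trimming and Tophat 2.0.12 for alignment against the mm9 transcriptome, collapsed reads by UMI and counted them per gene with HTSeq 0.10.0. The counting options for strand and for reads with several matches are not given in the sources used here. The deposited values are raw counts of UMIs per gene and cell. The stated filter asks for more than 500 genes and 10000 to 600000 transcripts per cell, which 1382 of 1735 cells meet, and all cells were kept here. No doublet caller was run on the hand-picked cells. Totals were 34102694 UMIs in the WT, 60484252 in the Jα18-deficient and 14536585 in the CD1d-deficient pool, and intervals and limits (3 counts) cover counting error only.

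Members and lists were chosen with earlier results of these data known. The named genes were all members, the 3 genes most like each, up to 4 called genes per list and contrast with the largest fold change, and up to 3 list genes per pair of pools with the largest ratio, of which some are printed and some are not reported here. Counts summed by pool and class were tested with edgeR 4.0.16 (TMM, filterByExpr, quasi-likelihood, Benjamini-Hochberg) in R 4.3.3. The p-values measure how far class differences vary between pools of different genotypes, since the pool term takes out differences between pools. This spread was estimated with help from the other genes tested, at 20.3 degrees of freedom for B2m, H2-K1 and H2-D1, so the narrow intervals rest in part on those genes. On simulated counts of 9447 genes with 100 genes per fold size changed by Ly49, edgeR recovered 7% of 2-fold and 22% of 4-fold changes. Alternatives were DESeq2 1.42.0, limma 3.58.1 on mean counts per 10000 plus 0.1, other filters, thresholds of 2 and 3 UMIs, thinned cells, any Klra gene, the stated filter, no pool term and leaving out each pool. Those for the H2-K1 to H2-D1 ratio were added after the values were seen. Exact intervals came from scipy 1.17.1 under Python 3.11.15.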

Additional observations from a re-analysis of the deposited data

How the results depend on the processing

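No paired analysis was possible because the columns carry no replicate numbers, although the labels share them between genotypes. The members that passed each filter gave 0 calls in all 4 contrasts under each of the 13 alternatives to the fit, with a lowest adjusted p of 0.353 for B2m by Ly49 detection (any Klra gene, edgeR). The count of members past a log2 ratio of 1 between pools did not change under the 6 alternatives. The 12 sums limit the rest, since few simulated 2-fold changes were recovered, and the Cd8a-only class of the Jα18-deficient pool holds 18 cells.

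Counts of all genes called moved. By Ly49 detection (28) they were 118 with DESeq2, 77 with no filter, 17 with at least 20 UMIs in each sum, 9 with no pool term, 18 at 2 UMIs and 18 at 3 UMIs, 52 in thinned cells, 14 with limma, and 16 to 31 with a pool left out. By Cd8a (1) they were 24 with DESeq2, 23 with no filter, 0 with at least 20 UMIs in each sum, 4 at 2 and 9 at 3 UMIs, 4 in thinned cells, 2 within the stated filter, 3 with any Klra gene, and 2 to 5 with a pool left out. For the interaction (0) they were 7 with DESeq2, 4 with no filter, 1 in thinned cells, 1 with any Klra gene, and 0 to 1 with a pool left out. For both against neither (23) they were 51 with DESeq2, 57 with no filter, 14 with at least 20 UMIs in each sum, 6 with no pool term, 58 in thinned cells, 8 with limma, and 12 to 24 with a pool left out. The cause was not tested.

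Member estimates changed sign in 41 of 180 refits, none past the threshold. By Ly49 detection, H2-K1 was 0.024 with no filter, 0.089 with at least 20 UMIs in each sum, 0.0016 with no pool term, 0.13 at 2 UMIs, 0.12 at 3 UMIs, 0.11 in thinned cells, 0.014 within the stated filter, 0.092 with limma and -0.055 to 0.025 with a pool left out. For Ly49, H2-D1 was -0.062 with DESeq2, -0.029 with any Klra gene and -0.031 to -0.0025 with a pool left out. For Ly49, H2-T23 was -0.0055 with any Klra gene and -0.0397 to 0.23 with a pool left out. For Ly49, Tap2 was 0.098 at 3 UMIs, 0.16 with any Klra gene, 0.072 with limma and -0.41 to 0.12 with a pool left out. For Ly49, Tapbp was -0.027 with DESeq2, -0.12 at 2 UMIs and -0.019 to 0.086 with a pool left out. For Cd8a, Cd1d1 was -2.26 to 0.14 with a pool left out. For Cd8a, B2m was -0.012 in thinned cells and -0.025 to 0.098 with a pool left out. For Cd8a, H2-D1 was -0.061 to 0.13 with a pool left out. For Cd8a, H2-T23 was -0.017 with at least 20 UMIs in each sum, -0.032 within the stated filter and -0.19 to 0.15 with a pool left out. For Cd8a, Tap2 was -0.025 at 2 UMIs, -0.31 at 3 UMIs, -0.20 in thinned cells, -0.0898 with any Klra gene and -0.012 to 0.30 with a pool left out. For Cd8a, Tapbp was -0.017 with at least 20 UMIs in each sum, -0.16 in thinned cells, -0.023 within the stated filter, -0.082 with any Klra gene and -0.094 to 0.14 with a pool left out.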
